A study of Homo sapiens with 18 samples.

Results

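The 10 BCL2 family genes described here are BCL2 (NCBI Gene 596), BCL2L1 (598), MCL1 (4170), BCL2A1 (597), BAK1 (578), BCL2L11 (10018), BID (637), BAD (572), BMF (90427) and PMAIP1 (5366), chosen by gene symbol. All 10 were listed in the tables of both cell lines, which held 17110 (HL-60) and 17475 (MOLM-13) genes, and all 10 passed the filter on low values. Messenger RNA was measured by stranded total RNA sequencing in 2 human acute myeloid leukaemia lines, HL-60, of promyelocytic type, and MOLM-13, of monocytic type with a KMT2A rearrangement. Each line was exposed for 48 h to dimethyl sulfoxide (DMSO, the solvent), to decitabine (DAC, a cytidine analogue that traps DNA methyltransferases) or to NTX-301, a compound known here by its code name. The 6 groups held 3 samples each, 18 in all. The stated concentration was 30 nM in HL-60 cultures, and 15 nM in those of MOLM-13. The labels leave unclear whether these hold for both drugs or for DAC alone, so line and concentration cannot be told apart, and the drugs can be compared only as applied.

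The BCL2 family sets whether the outer mitochondrial membrane stays intact. Anti-apoptotic members (BCL2, BCL2L1, which encodes BCL-XL, MCL1 and BCL2A1) bind and hold back the effectors, of which BAK1 is one, and effectors that are set free form pores through which cytochrome c leaves. BH3-only members (BCL2L11, which encodes BIM, BID, BAD, BMF and PMAIP1, which encodes NOXA) sense stress and either occupy the anti-apoptotic proteins or activate the effectors. Myeloid leukaemia cells are known for their dependence on BCL2 or MCL1, which inhibitors of the family exploit. Much of the control of these proteins lies in their stability and binding, which messenger RNA does not show.

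Since DAC acts through cytosines next to guanines, the bases before 3 transcription starts are shown, for the 2 members with the widest range over samples in either line (PMAIP1 in HL-60, BMF in MOLM-13) and for BCL2A1, the member with the fewest CG pairs. They are from RefSeq (GRCh38.p14), 250 bases each, written from 5′ to 3′ on the strand of the gene, with each CG pair in capitals. PMAIP1 lies on the plus strand (chr18:59899746-59899995), and BMF (chr15:40108880-40109129) and BCL2A1 (chr15:79971197-79971446) on the minus strand.
PMAIP1: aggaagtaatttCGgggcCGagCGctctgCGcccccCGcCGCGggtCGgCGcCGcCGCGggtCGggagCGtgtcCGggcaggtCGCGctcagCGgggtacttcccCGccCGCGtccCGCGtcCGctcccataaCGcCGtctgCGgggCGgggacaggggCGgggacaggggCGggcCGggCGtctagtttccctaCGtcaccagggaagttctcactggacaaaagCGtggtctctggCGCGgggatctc
BMF: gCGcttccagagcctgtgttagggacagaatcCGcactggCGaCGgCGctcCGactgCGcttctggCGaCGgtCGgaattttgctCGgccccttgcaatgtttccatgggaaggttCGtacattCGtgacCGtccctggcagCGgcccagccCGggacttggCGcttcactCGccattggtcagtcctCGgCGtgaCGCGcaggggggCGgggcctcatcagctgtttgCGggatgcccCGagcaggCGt
BCL2A1: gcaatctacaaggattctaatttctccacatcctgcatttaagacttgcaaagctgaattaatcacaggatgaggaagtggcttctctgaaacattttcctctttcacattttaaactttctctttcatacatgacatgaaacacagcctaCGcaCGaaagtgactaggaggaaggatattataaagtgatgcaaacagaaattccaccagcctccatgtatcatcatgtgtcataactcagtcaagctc

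The printed stretch held 36 CG pairs for PMAIP1, 26 for BMF and 2 for BCL2A1. In windows of 300 bases, from 250 before to 50 after the start, 9 of the 10 genes had a sequence, all but MCL1. The CG count was 42 for PMAIP1, 39 for BCL2L11, 37 for BID, 31 for BCL2 and for BMF, 21 for BAD, 20 for BCL2L1, 7 for BAK1 and 2 for BCL2A1. The median of 35116 such windows was 14, with quartiles at 4 and 28. The members with the most and the fewest CG pairs thus stood far apart. Both had a higher messenger RNA value with DAC that passed the test in 1 line, PMAIP1 in HL-60 and BCL2A1 in MOLM-13. The members between them went either way with DAC. BCL2L11 was called higher in both lines, BID lower in both, BMF lower in HL-60 and higher in MOLM-13, and BCL2 and BAK1 lower in MOLM-13. The calls of BCL2L11 in both lines, BID in HL-60 and BAK1 in MOLM-13 were each lost in some alternative, as given below. BCL2L1 and BAD were called in neither line. A relation between CG count and the DAC effect was not tested. Methylation was not measured, and where genes had several windows the window listed first was used. On both strands, GTAAACA, a forkhead motif, matched in BCL2L11 only (3.42% of all windows), and TGACG, the core of the cyclic AMP response element, in BCL2, BCL2L1, BAD, BMF and PMAIP1 (24.6%). TGACGTCA, which contains TGACG, matched in none of the 9 (1.85% of all windows). A match is a description of letters, not a bound site.

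Values are the normalized log2 values the authors deposited, and the method of their normalization and the read depth are not given in the sources used here. Replicates lay close together, with a median absolute log2 difference between 0.028 and 0.036 in HL-60 and between 0.037 and 0.051 in MOLM-13. The labels do not say that replicates were separate cultures, so p-values measure only the spread between these samples. Low genes varied less: the median range over 9 samples was 0.021 for HL-60 genes with a mean of 0 to 3, against 0.21 for a mean of 8 to 12, so differences of low genes are compressed. The 5 granule genes of promyelocytes (MPO, ELANE, AZU1, PRTN3, CTSG) were listed in both lines, so their presence does not tell the lines apart. Mean DMSO values, HL-60 first, were 18.71 against 13.04 for MPO and 13.73 against 13.45 for CTSG. For ELANE they were 14.26 against 14.94, for AZU1 12.80 against 14.94 and for PRTN3 16.07 against 16.89. ELANE, AZU1 and PRTN3 thus stood higher for MOLM-13, with no test, since the tables appear to have been normalized apart. The MOLM-13 markers FLT3, HOXA9, HOXA10 and MEIS1 were all listed for MOLM-13, while HOXA9 and MEIS1 were not listed for HL-60. Of 7 lymphoid and erythroid markers, the HL-60 tables listed 0 and those of MOLM-13 listed 3 (CD3D, HBA1, HBB).

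In HL-60, DAC changed 5 of the 10 genes against DMSO at a limma adjusted p under 0.05, 2 higher (PMAIP1, BCL2L11) and 3 lower (BMF, MCL1, BID). Over all genes tested, 24.2% were called in this comparison, 11.6% higher and 12.6% lower. Without DMSO replicate 3 or without DAC replicate 1 or 2, 3 members were called. NTX-301 changed 7, with BCL2L1, BMF and BAK1 higher and PMAIP1, MCL1, BID and BCL2L11 lower, against 37.4% of all genes (18.3% higher, 19.2% lower). MCL1 and BID fell with both drugs. PMAIP1, BMF and BCL2L11, 3 of the 5 BH3-only genes, moved in opposite directions with the drugs. The other BH3-only genes were BID, which fell with both, and BAD. The DAC calls of BCL2L11 and BID were lost in 8 and 5 of 16 alternatives. BCL2, BCL2A1 and BAD were called with neither drug. Groups of 3 did not overlap for 5 members with DAC (38.5% of all genes) and for 9 with NTX-301 (47.2%).

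**Figure D1:**
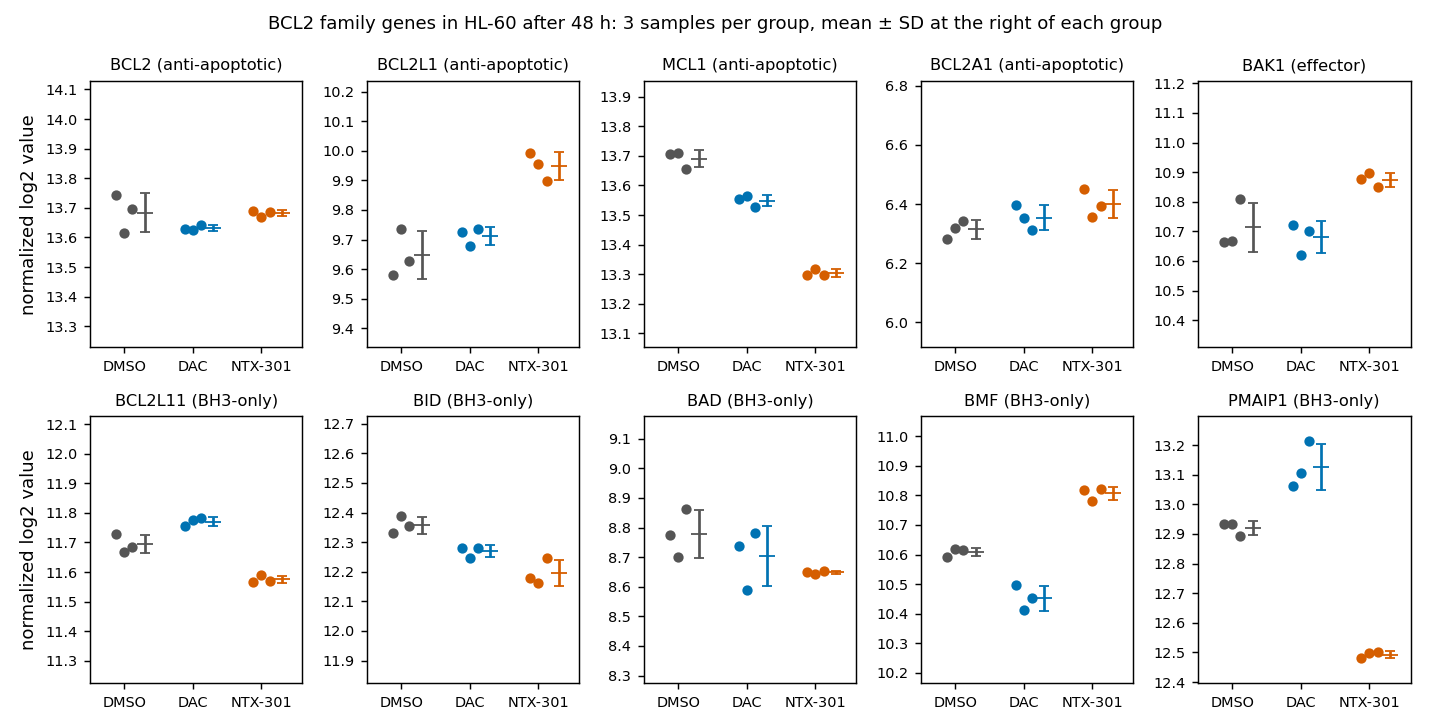
Deposited log2 values of the 10 genes in HL-60 (vertical axis, each panel spanning an equal log2 range) in the DMSO, DAC and NTX-301 groups; each point is 1 sample and the bar beside it is the group's mean ± SD. PMAIP1 lay above DMSO with DAC and below it with NTX-301, and BMF the reverse.

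Among the anti-apoptotic genes in HL-60, MCL1, a short-lived guard of myeloid cells, had log2 values of 13.71, 13.71 and 13.66 in DMSO samples, 13.55, 13.56 and 13.53 with DAC and 13.30, 13.32 and 13.30 with NTX-301. The 3 groups formed 3 separate steps. MCL1 fell with both drugs, with a log2 difference from DMSO of -0.14 (SE 0.021, adjusted p 0.000228) for DAC and -0.39 (SE 0.021, adjusted p 7.51e-09) for NTX-301. On the linear scale of the files, MCL1 fell by 23.5% with NTX-301. BCL2L1 stood at 9.58, 9.74 and 9.63 in DMSO samples, 9.72, 9.68 and 9.74 with DAC and 9.99, 9.95 and 9.90 with NTX-301. All 3 NTX-301 samples were above all 6 others, while the DAC and DMSO samples overlapped. The log2 difference of BCL2L1 from DMSO was 0.30 (SE 0.042, adjusted p 5.59e-05) with NTX-301, 1.23-fold, and 0.066 (adjusted p 0.281) with DAC, where the 95% interval was -0.024 to 0.15.

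BCL2, the target of venetoclax, kept between 13.61 and 13.74 in all 9 HL-60 samples. Its log2 difference was -0.053 with DAC (95% interval -0.11 to 0.0054) and -0.0025 with NTX-301 (95% interval -0.061 to 0.056), with adjusted p-values of 0.181 and 0.954. The sign of the NTX-301 value turned in 4 alternatives, so only the interval is informative. BCL2A1, a target of NF-kB, had log2 values of 6.28, 6.32 and 6.34 in DMSO and 6.45, 6.36 and 6.39 with NTX-301. These groups did not overlap, yet the difference of 0.086 (adjusted p 0.0725) missed the threshold. Its DAC difference was 0.039 (adjusted p 0.467).

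BAK1, the effector of the set, had HL-60 log2 values of 10.67, 10.67 and 10.81 in DMSO samples, 10.72, 10.62 and 10.70 with DAC and 10.88, 10.90 and 10.85 with NTX-301. The NTX-301 samples lay above the other 6. The BAK1 difference from DMSO was 0.16 (SE 0.040, adjusted p 0.00585) with NTX-301 and -0.034 (adjusted p 0.594) with DAC, the latter turning to 0.014 without DMSO replicate 3, the highest of the control samples. BAK1 has a processed pseudogene of near-identical sequence, and how the authors' counting treated shared reads is not given in the sources used here, so its values are uncertain to that extent.

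PMAIP1, whose protein NOXA binds MCL1, gave the widest spread of the set in HL-60. Its log2 values were 12.93, 12.94 and 12.89 in DMSO samples, 13.06, 13.11 and 13.21 with DAC and 12.48, 12.50 and 12.50 with NTX-301. The DAC samples were all above and the NTX-301 samples all below the DMSO samples. PMAIP1 rose with DAC by 0.21 (SE 0.032, adjusted p 0.000331), 1.15-fold, and with NTX-301 the difference was -0.43 (SE 0.032, adjusted p 1.53e-07). On the linear scale PMAIP1 fell by 25.7% with NTX-301. Its range over the 9 samples stood at percentile 99.1 among all HL-60 genes.

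BMF, which links the family to the actin cytoskeleton, ran the other way. Its HL-60 log2 values were 10.59, 10.62 and 10.61 in DMSO samples, 10.50, 10.41 and 10.45 with DAC and 10.82, 10.78 and 10.82 with NTX-301, and no group overlapped another. BMF differed from DMSO by -0.16 (SE 0.029, adjusted p 0.00162) with DAC and by 0.20 (SE 0.029, adjusted p 9.80e-05) with NTX-301. BCL2L11 (BIM), a broad binder of the anti-apoptotic proteins, stood at 11.73, 11.67 and 11.69 in DMSO samples, 11.75, 11.77 and 11.78 with DAC and 11.57, 11.59 and 11.57 with NTX-301. Its 3 groups were separate as well, over a narrower range. The BCL2L11 difference was 0.076 (SE 0.024, adjusted p 0.0353) with DAC and -0.12 (SE 0.024, adjusted p 0.0013) with NTX-301. The DAC call was lost in 8 alternatives: with centring on sample medians, with only the DAC and DMSO groups in the fit, with a replicate block, and without DMSO replicate 2 or 3 or any 1 DAC replicate (adjusted p up to 0.118, log2 difference 0.062 to 0.084).

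BID, which caspase-8 cleaves to carry the death receptor signal to mitochondria, was the BH3-only gene that fell with both drugs in HL-60. Its log2 values were 12.33, 12.39 and 12.36 in DMSO samples, 12.28, 12.25 and 12.28 with DAC and 12.18, 12.16 and 12.25 with NTX-301. All 6 treated samples were below the 3 DMSO samples. The difference was -0.089 (SE 0.027, adjusted p 0.0262) with DAC and -0.16 (SE 0.027, adjusted p 0.000247) with NTX-301. The DAC call was lost without DMSO replicate 2 or 3, without DAC replicate 1 or 2 and under quantile normalization (adjusted p up to 0.102). BAD, which is held inactive by survival kinases, had log2 values of 8.78, 8.70 and 8.86 in DMSO samples, 8.74, 8.59 and 8.78 with DAC and 8.65, 8.64 and 8.65 with NTX-301. The NTX-301 samples were below all DMSO samples, but the BAD differences of -0.13 (adjusted p 0.063) with NTX-301 and -0.076 (adjusted p 0.315) with DAC did not pass the test. The NTX-301 value was called in 6 alternatives: with a replicate block, centring, quantile normalization (-0.19, adjusted p 0.0215), only the 2 groups compared, and without replicate 2 of DMSO or of DAC.

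Other markers moved in the same HL-60 samples. With NTX-301, all 5 promyelocytic granule genes were lower than in DMSO, by a median log2 difference of -0.35 (19.2% of all genes called lower). The summed linear level of these 5 genes was 402488 to 412021 against 523269 to 556406 in DMSO and 520888 to 522084 with DAC. MPO alone made up most of each sum. Under quantile normalization 4 of the 5 fell, with a median of -0.22. That method sets a value by its rank within the sample, and the rank of MPO was the same in all DMSO and NTX-301 samples, so it can show no difference of MPO between them. PTPRC, the gene of the leukocyte antigen CD45, was higher by 0.49 (SE 0.027, adjusted p 1.01e-08) and SPI1, the myeloid factor PU.1, lower at -0.32 (SE 0.033, adjusted p 3.33e-06) with NTX-301. Their part in the BCL2 family results was not tested. In bulk samples, fewer cells of a type and less RNA per cell cannot be told apart.

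In MOLM-13, DAC changed 6 of the 10 genes, with BMF, BCL2A1 and BCL2L11 higher and BID, BCL2 and BAK1 lower, where 36.6% of all genes were called (15.4% higher, 21.2% lower). Under quantile normalization 5 members were higher and 2 lower with DAC, with MCL1 and PMAIP1 added and BAK1 lost. NTX-301 changed 7, with BMF, BCL2A1 and BCL2L1 higher and BID, BAK1, BCL2 and MCL1 lower, where 45.1% of all genes were called (20.3% higher, 24.8% lower). The count was 4 under quantile normalization and 4 without DMSO replicate 2. The 5 members called with both drugs (BMF, BCL2A1, BID, BCL2, BAK1) had the same direction with each, and 0 had opposite directions. The drugs share the 3 DMSO samples, so these counts are not independent. BAD and PMAIP1 were called with neither drug in this fit. Groups did not overlap for 6 members with DAC (47.9% of all genes) and 8 with NTX-301 (55.8%).

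**Figure D2:**
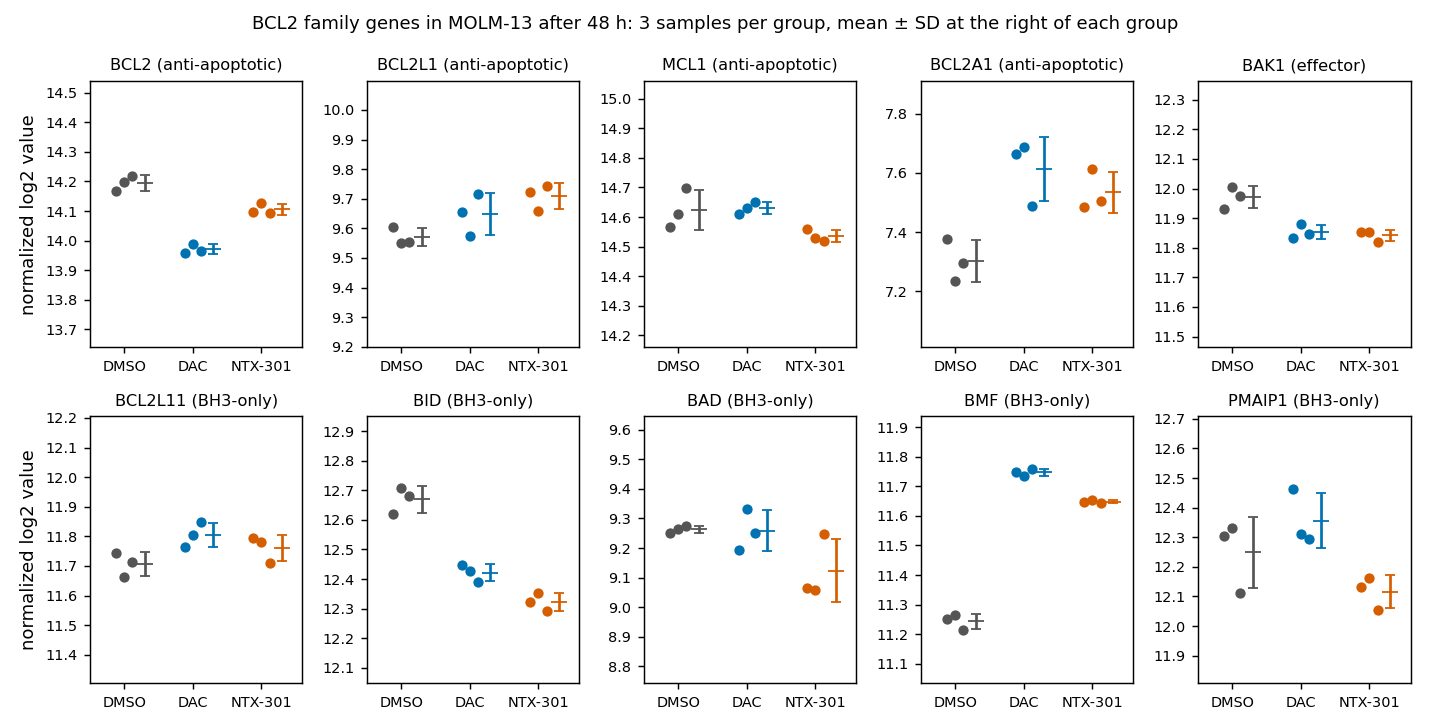
Deposited log2 values of the 10 genes in MOLM-13 (vertical axis, each panel spanning an equal log2 range) in the DMSO, DAC and NTX-301 groups; each point is 1 sample and the bar beside it is the group's mean ± SD. BMF lay above DMSO with both drugs and BID below it with both.

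BMF had the largest difference of the 10 genes in MOLM-13. Its log2 values were 11.25, 11.26 and 11.21 in DMSO samples, 11.75, 11.74 and 11.76 with DAC and 11.65, 11.65 and 11.64 with NTX-301. Every treated sample was above every DMSO sample, and the DAC samples were above the NTX-301 samples. BMF rose by 0.50 (SE 0.026, adjusted p 1.88e-07) with DAC, 1.42-fold, and by 0.40 (SE 0.026, adjusted p 6.32e-07) with NTX-301, 1.32-fold. Its range over the 9 samples stood at percentile 96.4 among MOLM-13 genes.

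Of the other BH3-only genes in MOLM-13, BCL2L11 was called higher with DAC and BID lower with both drugs. BID stood at 12.62, 12.71 and 12.68 in DMSO samples, 12.45, 12.43 and 12.39 with DAC and 12.32, 12.35 and 12.29 with NTX-301. Its 3 groups did not overlap. The BID difference was -0.25 (SE 0.029, adjusted p 6.61e-05) with DAC and -0.35 (SE 0.029, adjusted p 3.96e-06) with NTX-301. On the linear scale BID fell by 21.5% with NTX-301. BCL2L11 had log2 values of 11.74, 11.66 and 11.71 in DMSO samples, 11.77, 11.80 and 11.85 with DAC and 11.79, 11.78 and 11.71 with NTX-301. DAC samples lay above DMSO samples, and NTX-301 samples overlapped with DMSO. BCL2L11 differed by 0.099 (SE 0.034, adjusted p 0.0372) with DAC and by 0.054 (adjusted p 0.215) with NTX-301, which was called under quantile normalization (0.12, adjusted p 0.0257). The DAC call was lost in 6 alternatives: with samples centred on their medians, where it was 0.062 with an adjusted p of 0.185, with a replicate block, and without DMSO replicate 2 or 3 or DAC replicate 2 or 3.

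PMAIP1 in MOLM-13 had log2 values of 12.30, 12.33 and 12.11 in DMSO samples, 12.46, 12.31 and 12.29 with DAC and 12.13, 12.16 and 12.05 with NTX-301. DMSO replicate 3 lay below the other DMSO samples, and the DMSO samples overlapped with both treated groups. Its difference was 0.11 with DAC (95% interval -0.021 to 0.24, adjusted p 0.177) and -0.13 with NTX-301 (95% interval -0.26 to -0.0049, adjusted p 0.0851). The BAD values were 9.25, 9.26 and 9.27 in DMSO samples, 9.19, 9.33 and 9.25 with DAC and 9.07, 9.06 and 9.25 with NTX-301. BAD differences were -0.0038 (adjusted p 0.965) and -0.14 (adjusted p 0.069), the former with a 95% interval of -0.13 to 0.12. The NTX-301 value of PMAIP1 was called with a replicate block, with centring (-0.16, adjusted p 0.0223), with a mean linear value of at least 20 and without DMSO replicate 3 (-0.20, adjusted p 0.00859), and its DAC value under quantile normalization (0.17, adjusted p 0.0477). The NTX-301 value of BAD was called with centring, under quantile normalization (-0.22, adjusted p 0.0106) and without NTX-301 replicate 3.

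Among the anti-apoptotic genes in MOLM-13, BCL2 had log2 values of 14.17, 14.20 and 14.22 in DMSO samples, 13.96, 13.99 and 13.97 with DAC and 14.10, 14.13 and 14.09 with NTX-301. The 3 groups were separate, with the DAC samples lowest. BCL2 differed from DMSO by -0.22 (SE 0.023, adjusted p 2.28e-05) with DAC and by -0.089 (SE 0.023, adjusted p 0.00697) with NTX-301. Quantile normalization left the DAC fall at -0.14 and turned the NTX-301 value to 0.019, so the NTX-301 call depends on the scaling. BCL2A1 stood at 7.38, 7.23 and 7.29 in DMSO samples, 7.66, 7.69 and 7.49 with DAC and 7.48, 7.61 and 7.51 with NTX-301. All treated samples were above all DMSO samples. BCL2A1 rose by 0.31 (SE 0.067, adjusted p 0.00356) with DAC, 1.24-fold, and by 0.23 (SE 0.067, adjusted p 0.0143) with NTX-301. The NTX-301 call was lost without DMSO replicate 2, without NTX-301 replicate 2 and under quantile normalization, where the difference was 0.11 (adjusted p 0.209).

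MCL1 showed little movement in MOLM-13, with log2 values of 14.57, 14.61 and 14.70 in DMSO samples, 14.61, 14.63 and 14.65 with DAC and 14.56, 14.53 and 14.52 with NTX-301. The NTX-301 samples were below the DMSO samples by a narrow margin, and DAC samples lay within the DMSO range. The MCL1 difference was 0.0057 with DAC (95% interval -0.063 to 0.074, adjusted p 0.903) and -0.089 (SE 0.031, adjusted p 0.0369) with NTX-301. Under quantile normalization these were 0.11 (adjusted p 0.0116) and 0.045 (adjusted p 0.245), so neither direction of MCL1 held across scalings. The NTX-301 call was also lost with no mean-variance trend, without DMSO replicate 2 or 3 and without NTX-301 replicate 2 or 3. BCL2L1 had log2 values of 9.60, 9.55 and 9.55 in DMSO samples, 9.65, 9.57 and 9.71 with DAC and 9.72, 9.66 and 9.74 with NTX-301. NTX-301 samples lay above DMSO samples and overlapped with DAC samples. The BCL2L1 difference was 0.14 (SE 0.046, adjusted p 0.0284) with NTX-301 and 0.078 (adjusted p 0.213) with DAC. The NTX-301 call was lost in 6 alternatives: with centring on sample medians, with quantile normalization, and without DMSO replicate 2 or 3 or NTX-301 replicate 1 or 3 (adjusted p up to 0.121).

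BAK1 fell with both drugs in MOLM-13. Its log2 values were 11.93, 12.01 and 11.98 in DMSO samples, 11.83, 11.88 and 11.85 with DAC and 11.85, 11.85 and 11.82 with NTX-301. All treated samples were below all DMSO samples. The difference was -0.12 (SE 0.028, adjusted p 0.00559) with DAC and -0.13 (SE 0.028, adjusted p 0.00244) with NTX-301. Quantile normalization reduced these to -0.066 (adjusted p 0.0753) and -0.062 (adjusted p 0.078), so both BAK1 calls depend on the scaling. Markers moved in these samples too. Of the 4 MOLM-13 markers, 0 rose and 4 fell with DAC (36.6% of all genes called), and with NTX-301 1 rose and 2 fell (45.1% of all genes called). MEIS1, a HOX cofactor, was -0.16 (adjusted p 0.00256) with DAC and 0.11 (adjusted p 0.0174) with NTX-301, and FLT3, a receptor kinase, -0.29 (adjusted p 7.58e-06) with DAC and -0.21 (adjusted p 4.65e-05) with NTX-301. The MEIS1 calls were lost with quantile normalization (DAC, adjusted p 0.0524) and with centring (NTX-301, adjusted p 0.0616). Of the 5 granule genes, 3 rose and 0 fell with DAC, and 2 rose and 1 fell with NTX-301, beside the same shares of all genes. AZU1 rose by 0.17 (adjusted p 0.00207) and 0.20 (adjusted p 0.000471), while MPO was 0.72 (adjusted p 4.07e-08) with DAC and -0.087 (adjusted p 0.017) with NTX-301, the latter 0.014 (adjusted p 0.737) under quantile normalization. SPI1 rose with DAC by 0.16 (adjusted p 0.018), and with NTX-301 PTPRC rose by 0.14 (adjusted p 0.00121) and the lymphoid gene CD3D by 0.28 (adjusted p 0.00219). The 4 MOLM-13 markers had a summed linear level of 50047 to 52601 in DMSO, 42377 to 43632 with DAC and 45877 to 46500 with NTX-301. FLT3 alone made up most of each sum. The 3 listed lymphoid and erythroid markers summed to 715 to 921 in DMSO, 657 to 851 with DAC and 831 to 1165 with NTX-301, and the other 4 of the list were not listed. Their part in the member results was not tested.

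**Figure D3:**
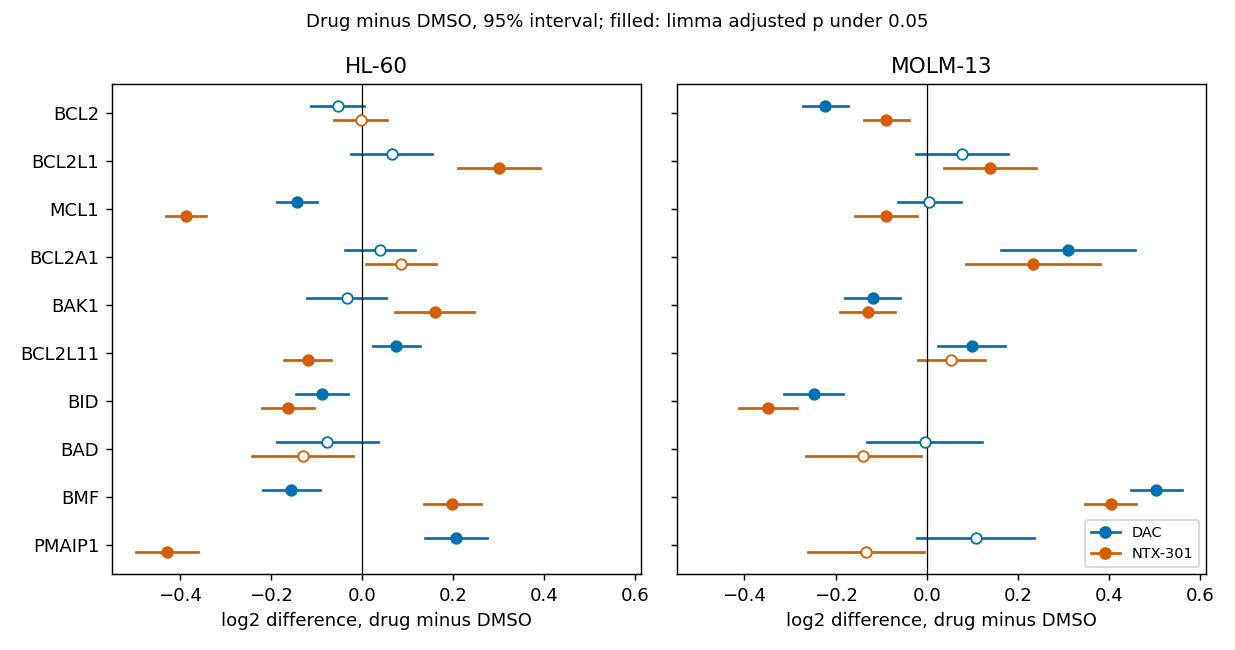
Log2 difference of each gene from DMSO (horizontal axis) with its 95% interval, for DAC and NTX-301 in HL-60 (left) and MOLM-13 (right); filled points have a limma adjusted p under 0.05. In HL-60 the intervals of PMAIP1 and BMF lay on opposite sides of 0 for the 2 drugs, and in MOLM-13 both BMF intervals lay above 0.

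NTX-301 was then compared with DAC directly, which does not use the DMSO samples except for the shared spread. In HL-60, 6 of the 10 genes differed, with BMF, BCL2L1 and BAK1 higher with NTX-301 and PMAIP1, MCL1 and BCL2L11 lower, where 30.4% of all genes were called (15.4% higher, 15% lower). Groups did not overlap for 7 members (44.4% of all genes). PMAIP1 had the largest value, -0.64 (SE 0.032, adjusted p 8.93e-09), or -35.6% on the linear scale. BMF was higher by 0.35 (SE 0.029, adjusted p 8.10e-07) and BCL2L1 by 0.24 (SE 0.042, adjusted p 0.000667). MCL1 differed by -0.24 (adjusted p 1.07e-06), BCL2L11 by -0.20 (adjusted p 3.42e-05) and BAK1 by 0.19 (adjusted p 0.00219). For the 4 genes that were not called, the 95% intervals were -0.0079 to 0.11 for BCL2, -0.030 to 0.12 for BCL2A1, -0.13 to -0.016 for BID and -0.16 to 0.057 for BAD. Unlike the p-values, the intervals are not adjusted for the number of genes tested.

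In MOLM-13 the same comparison called 3 members, BCL2 higher with NTX-301 and BMF and PMAIP1 lower, where 7.42% of all genes were called (3.01% higher, 4.41% lower). Groups did not overlap for 5 members (27.3% of all genes). BCL2 was higher by 0.13 (SE 0.023, adjusted p 0.00596). This call was kept in every alternative. BMF differed by -0.10 (SE 0.026, adjusted p 0.0366) and PMAIP1 by -0.24 (SE 0.059, adjusted p 0.0311). Both of these calls were fragile. That of BMF was lost without any 1 of the DAC or NTX-301 replicates, with centring, with a replicate block and with only the groups compared (adjusted p up to 0.12). That of PMAIP1 was lost without DAC replicate 1, without any 1 NTX-301 replicate and with no mean-variance trend (adjusted p up to 0.122). Without DAC replicate 1 or any 1 NTX-301 replicate, 1 member was called instead of 3. The 95% intervals of uncalled members included -0.23 to 0.069 for BCL2A1, the widest, and -0.26 to -0.0092 for BAD.

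**Figure D4:**
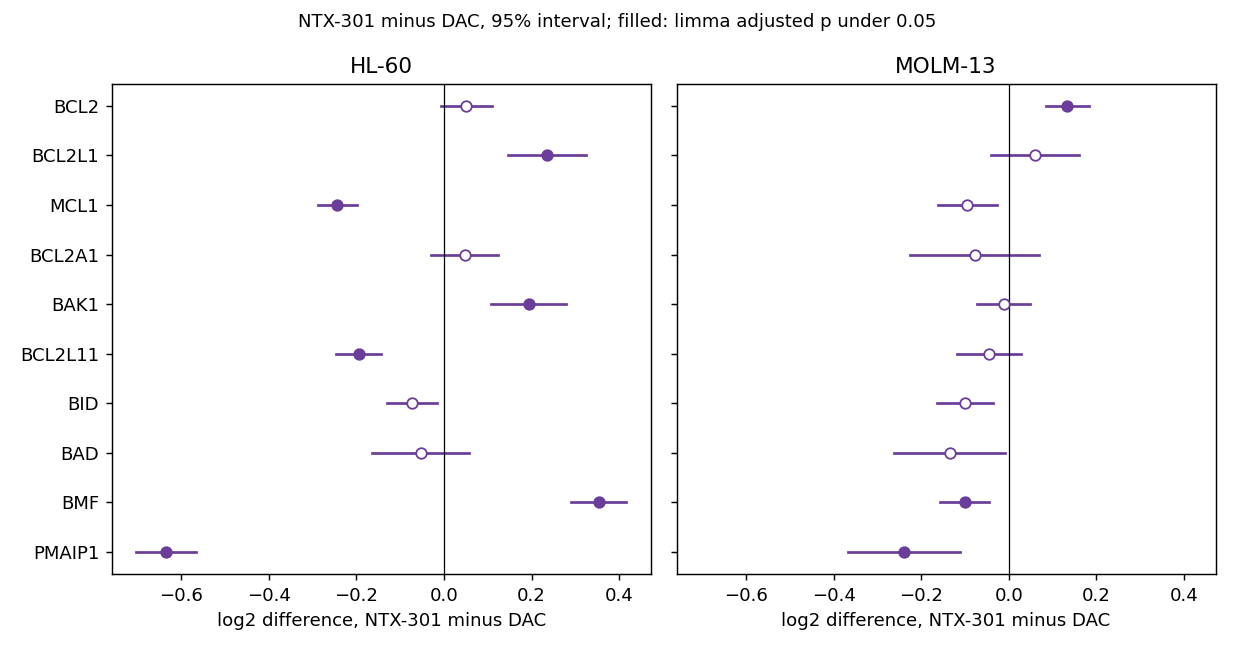
Log2 difference between NTX-301 and DAC for each gene (horizontal axis, NTX-301 minus DAC) with its 95% interval, in HL-60 (left) and MOLM-13 (right); filled points have a limma adjusted p under 0.05. PMAIP1 in HL-60 lay farthest from 0, and its value was negative in both lines.

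The last comparison asked if the lines responded differently. The HL-60 effect of a drug was subtracted from its MOLM-13 effect in 1 fit of all 18 samples. For DAC, 5 of the 10 genes differed, 3 more positive in MOLM-13 and 2 more negative, against 30% of all genes tested (12.1% and 17.9%). BMF stood first, since DAC lowered it in HL-60 and raised it in MOLM-13, with a difference between lines of 0.66 (SE 0.036, adjusted p 2.02e-10). BCL2A1 and MCL1 also had a more positive DAC effect in MOLM-13, by 0.27 (adjusted p 0.00945) and 0.15 (adjusted p 0.00564). BCL2 and BID had a more negative one, with -0.17 (adjusted p 0.00131) and -0.16 (adjusted p 0.00465). The BCL2 difference was -0.082 with an adjusted p of 0.0981 under quantile normalization. PMAIP1, called with DAC in HL-60 and not in MOLM-13, was not called in this test between lines, with a difference of -0.099 and a 95% interval of -0.25 to 0.052 (adjusted p 0.324).

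For NTX-301, 7 of the 10 genes differed between lines, 4 more positive in MOLM-13 and 3 more negative, against 40% of all genes tested (17.6% and 22.4%). The effect was more positive in MOLM-13 for MCL1 at 0.30 (SE 0.038, adjusted p 4.44e-06), PMAIP1 at 0.30 (SE 0.072, adjusted p 0.00298), BMF at 0.21 (SE 0.036, adjusted p 0.000158) and BCL2L11 at 0.17 (SE 0.040, adjusted p 0.00205). It was more negative there for BAK1 at -0.29 (SE 0.051, adjusted p 0.000159), BID at -0.19 (SE 0.040, adjusted p 0.000887) and BCL2L1 at -0.16 (SE 0.063, adjusted p 0.0458). BAK1 was the member whose NTX-301 calls had opposite directions in the lines, higher in HL-60 and lower in MOLM-13. Its MOLM-13 call was lost under quantile normalization, while its call between lines was kept in every alternative. The BCL2L1 call was lost in 14 alternatives, among them the replicate block and the removal of single samples of every group except MOLM-13 DAC (adjusted p up to 0.127). The granule genes moved alongside, with all 5 showing a more positive NTX-301 effect in MOLM-13 (median 0.45), and their part was not tested.

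**Figure D5:**
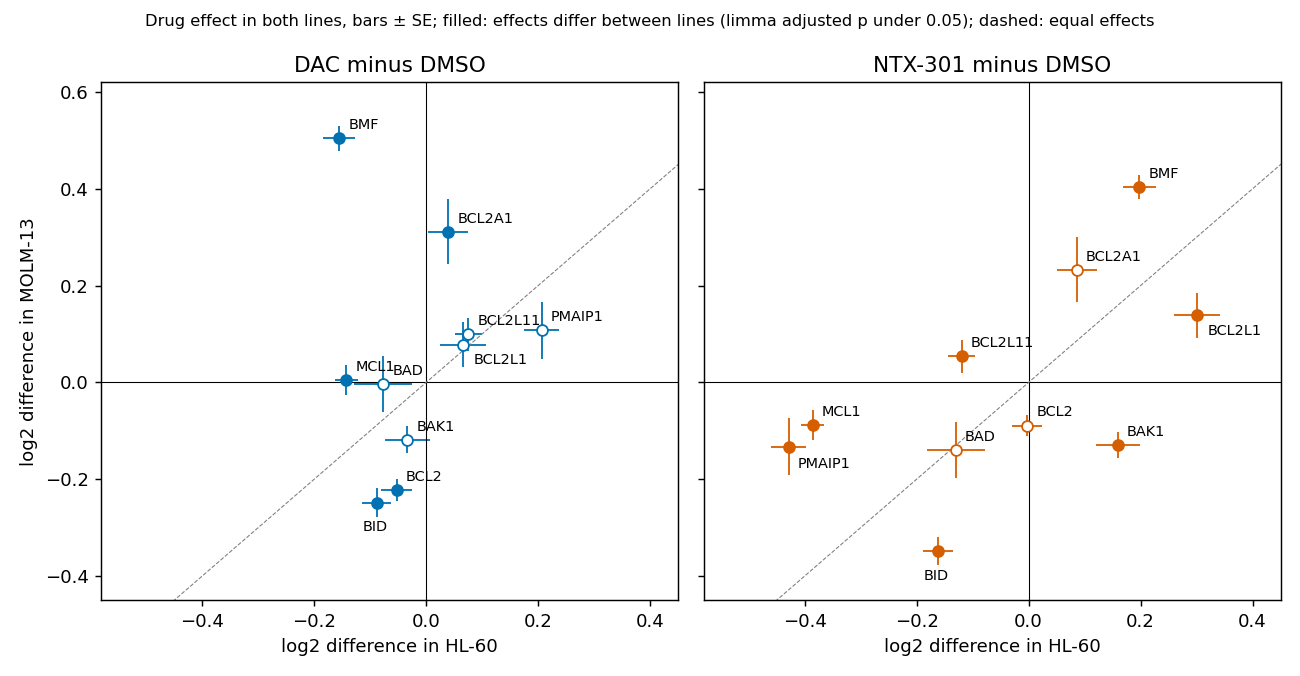
Log2 difference from DMSO in HL-60 (horizontal axis) against that in MOLM-13 (vertical axis) for DAC (left) and NTX-301 (right), with bars of ± 1 SE; filled points have a limma adjusted p under 0.05 for the difference between lines and the dashed line marks equal effects. BMF with DAC lay in the quadrant lower in HL-60 and higher in MOLM-13, and BAK1 with NTX-301 in the opposite quadrant.

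Control levels of the lines are set side by side with no test, since their tables appear to have been normalized apart. In DMSO samples the mean ± SD (n = 3) was 10.61 ± 0.014 in HL-60 and 11.24 ± 0.026 in MOLM-13 for BMF, 6.31 ± 0.032 and 7.30 ± 0.071 for BCL2A1, and 10.71 ± 0.083 and 11.97 ± 0.037 for BAK1. It was 13.69 ± 0.029 and 14.62 ± 0.068 for MCL1, 13.68 ± 0.066 and 14.19 ± 0.026 for BCL2, and 9.65 ± 0.080 and 9.57 ± 0.030 for BCL2L1. PMAIP1 had 12.92 ± 0.023 in HL-60 and 12.25 ± 0.12 in MOLM-13. BID had 12.36 ± 0.029 and 12.67 ± 0.045, BCL2L11 11.70 ± 0.032 and 11.71 ± 0.041, and BAD 8.78 ± 0.081 and 9.26 ± 0.012. The samples of the lines overlapped for BCL2L11 and BCL2L1, and of the other members PMAIP1 alone had its higher values in HL-60. The median over all listed genes leaned the same way, at 9.52 to 9.56 in the 9 HL-60 samples and 9.79 to 9.84 in those of MOLM-13. The direction, higher in MOLM-13, is thus not particular to these members. The gap between these medians was smaller than that of BAK1, BCL2A1, MCL1 or BMF, and they are over different sets of genes. What the medians have to do with the member levels was not tested.

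Of 13 further genes of the family, 9 were listed in each line, and BOK, HRK, BCL2L10 and BCL2L14 were not. In HL-60, 1 rose and 2 fell with DAC (24.2% of all genes called), and 3 rose and 1 fell with NTX-301 (37.4% of all genes called). BNIP3L, a receptor for mitochondrial clearance, rose there by 0.35 (SE 0.043, adjusted p 4.85e-05) with DAC and 0.50 (SE 0.043, adjusted p 6.06e-07) with NTX-301, and BCL2L13, another such receptor, fell, with differences of -0.16 (adjusted p 0.000685) and -0.27 (adjusted p 3.30e-06). In MOLM-13, 3 rose and 1 fell with DAC (36.6% of all genes called), and 4 rose and 3 fell with NTX-301 (45.1% of all genes called). BAX, the other effector, and BBC3, which encodes the BH3-only protein PUMA, rose in MOLM-13, BAX by 0.22 (adjusted p 9.70e-05) with DAC and 0.28 (adjusted p 1.22e-05) with NTX-301 and BBC3 by 0.25 (adjusted p 0.000414) and 0.29 (adjusted p 0.000102). In HL-60, BAX was -0.10 (adjusted p 0.0432) with DAC and -0.019 (adjusted p 0.711) with NTX-301, and BBC3 0.084 (adjusted p 0.142) and 0.16 (adjusted p 0.00433). The MOLM-13 values of the effectors BAX and BAK1 thus had opposite signs with both drugs, except that the BAK1 falls were not called under quantile normalization.

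At the mitochondria and downstream, of 17 genes of the mitochondrial arm (cytochrome c, the apoptosome, caspases with their inhibitors and the antagonists of these, the mitochondrial flavoprotein AIFM1, the nuclease ENDOG and the membrane channels VDAC1, VDAC2 and VDAC3), 1 rose and 10 fell with DAC in MOLM-13 and 1 rose and 11 fell with NTX-301, with median log2 differences of -0.19 and -0.21 against 0.0013 and 0.0034 over all genes. Over all MOLM-13 genes, 15.4% were called higher and 21.2% lower with DAC, and 20.3% and 24.8% with NTX-301. The falls in this arm included AIFM1 and all 3 channels with each drug, VDAC1 for example at -0.24 (adjusted p 6.12e-05) with DAC and -0.32 (adjusted p 6.52e-06) with NTX-301. CYCS (cytochrome c) fell there, with differences of -0.27 (adjusted p 0.000171) for DAC and -0.45 (adjusted p 3.31e-06) for NTX-301, as did BIRC5 (survivin, of the inhibitor of apoptosis family), with -0.30 (adjusted p 3.10e-05) and -0.42 (adjusted p 2.11e-06). In HL-60, 3 rose and 1 fell with DAC (24.2% of all genes called) and 5 rose and 6 fell with NTX-301 (37.4% of all genes called). XIAP, which binds caspases, was -0.030 (adjusted p 0.464) with DAC and -0.20 (adjusted p 3.57e-05) with NTX-301 there. The drug effect was more negative in MOLM-13 than in HL-60 for 11 of the 17 genes with DAC and 13 with NTX-301, and more positive for 0 and 2. Over all genes tested, 17.9% and 22.4% were called more negative, and 12.1% and 17.6% more positive. Under quantile normalization the MOLM-13 medians of this arm were -0.12 and -0.14, with 2 rises and 11 falls for DAC and 1 and 11 for NTX-301, and with centring they were -0.23 and -0.24, with 0 rises and 11 falls for each.

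Of 8 genes of the death receptor arm, which feeds into BID, 3 rose and 2 fell with DAC in MOLM-13 (36.6% of all genes called). With NTX-301, 4 rose and 3 fell in MOLM-13 (45.1% of all genes called). TNFRSF10B, a receptor for the ligand TRAIL, rose there by 0.31 (adjusted p 3.04e-06) and 0.37 (adjusted p 6.32e-07), and FAS by 0.25 (adjusted p 0.000686) and 0.38 (adjusted p 2.67e-05). In HL-60, 0 rose and 2 fell with DAC (24.2% of all genes called) and 2 rose and 3 fell with NTX-301 (37.4% of all genes called). CASP8, which cleaves BID, was -0.11 (adjusted p 0.0109) with DAC and 0.029 (adjusted p 0.448) with NTX-301 there, and TNFRSF10B -0.035 (adjusted p 0.523) and -0.18 (adjusted p 0.000934). Under centring and quantile normalization the FAS and TNFRSF10B calls in MOLM-13 were kept.

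MCL1 messenger RNA fell with both drugs in HL-60. Of 6 genes that set the turnover of MCL1 protein, 1 rose and 2 fell with DAC in that line (24.2% of all genes called). With NTX-301, 2 rose and 2 fell in HL-60 (37.4% of all genes called). USP13, a deubiquitinase, was 0.19 (adjusted p 6.81e-05) with DAC and 0.050 (adjusted p 0.12) with NTX-301, and HUWE1, a ubiquitin ligase for MCL1, 0.035 (adjusted p 0.143) and 0.095 (adjusted p 0.000409). In MOLM-13, 0 were called with DAC (36.6% of all genes called) and 1 fell with NTX-301 (45.1% of all genes called). The latter was MARCHF5, another ubiquitin ligase, at -0.093 (adjusted p 0.0277). Under quantile normalization MARCHF5 was -0.056 (adjusted p 0.204). FBXW7, a ligase subunit that recognizes MCL1, was -0.080 (adjusted p 0.0596) with DAC in MOLM-13, and -0.12 (adjusted p 0.00911) with samples centred on their medians. Under quantile normalization, the rises and falls in MOLM-13 were 2 and 0 with DAC and 3 and 0 with NTX-301, so no direction of this list held there across scalings.

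Of 8 transcription factors known to act on the family, 7 could be tested in HL-60 and all 8 in MOLM-13. ATF4, a stress factor known to raise PMAIP1, fell in both lines with both drugs, with differences of -0.14 (adjusted p 0.00196) and -0.27 (adjusted p 2.16e-06) in HL-60 and of -0.41 (adjusted p 4.26e-06) and -0.39 (adjusted p 3.25e-06) in MOLM-13. TP73 rose with NTX-301 in HL-60 by 0.49 (adjusted p 2.06e-06) and was 0.075 (adjusted p 0.285) with DAC. E2F1, a cell cycle factor, fell in MOLM-13, with differences of -0.29 (adjusted p 7.37e-05) and -0.44 (adjusted p 2.69e-06). In all, 1 factor rose and 2 fell with each drug in HL-60 (24.2% of all genes called with DAC, 37.4% with NTX-301). For MOLM-13, 2 rose and 3 fell with DAC (36.6% of all genes called) and 3 rose and 2 fell with NTX-301 (45.1% of all genes called). Under quantile normalization the HL-60 counts were 0 rises and 2 falls with DAC and 3 and 3 with NTX-301, and those of MOLM-13 were 3 and 3 and 4 and 2.

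The genes whose pattern was most like that of PMAIP1 over the 9 HL-60 samples, among the 10338 genes that averaged 8 or more, were TMED2, SRGN and ACSL3, each with a Pearson r of 0.994. SRGN, the granule proteoglycan serglycin, had group means of 16.44 (DMSO), 16.66 (DAC) and 16.04 (NTX-301). For BMF over the 9 MOLM-13 samples, among 10981 genes, they were PLXDC2, SLC23A2 and LOC102724908, each with an r of 0.996. PLXDC2 had means of 9.34, 10.11 and 9.97. The 9 samples of a line form 3 groups, which any gene with the same order of group means shares, and 477 HL-60 genes and 522 MOLM-13 genes had an r above 0.9.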

How the data were processed

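RNA was sequenced after 48 h in 18 samples, 3 per group. Per the submitters' processing notes, FastQC, Trimmomatic 0.38, HISAT2, StringTie and the hg19 build were used. The authors deposited 1 normalized log2 value per gene and sample; the unit is read from the values, and the normalization method and depth are not given in the sources used here. Values were compared with limma 3.58.1 in R 4.3.3 (two-sided; lmFit and eBayes, trend set to true for mean and variance), in 1 fit of the 9 samples of each line with a mean per group (6 residual degrees of freedom). Differences between lines came from 1 fit of 18 samples (12 residual degrees of freedom). The Benjamini-Hochberg adjustment ran over every gene tested (17046 HL-60 genes, 17475 MOLM-13 genes, 15474 shared), and the threshold was 0.05. The 95% intervals are for single genes without this adjustment, so an interval can exclude 0 for a gene that was not called. A gene was tested if 3 or more samples had a linear value of 1 or more, which left out 64 HL-60 genes and 0 MOLM-13 genes.

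The members and the gene lists were chosen with earlier results of these data known. All 10 members are named whatever their values, and of each other list the 2 genes per line with the lowest adjusted p-value against DMSO, with BAX and BBC3. Some of these are not reported here. On simulated data, the fits recovered 92.3% (HL-60), 78.3% (MOLM-13) and 70% (DAC effect between lines) of changes of 0.25, and 100% of those of 0.5 and 1, with 9, 10 and 13 false calls. The simulation changed only a small share of genes, with normal noise independent between genes. In the data, 24.2% to 45.1% of genes were called against DMSO, so its rates do not carry over. Changes under 0.25, the size of many member calls, were not simulated. Alternatives were no trend, centring on sample medians, quantile normalization, a fit of only the groups compared, no filter, a mean linear value of at least 20, a replicate block, and leaving out each sample.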

Additional observations from a re-analysis of the deposited data

Results flagged for a closer look

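The difference between lines was tested with limma (the HL-60 effect subtracted from the MOLM-13 effect, 3 samples per group). Of all genes tested, 30% passed the threshold with DAC and 40% with NTX-301. It was passed by 12 results on members. With DAC they were BMF (0.66), BCL2A1 (0.27), MCL1 (0.15), BID (-0.16) and BCL2 (-0.17). With NTX-301 they were MCL1 (0.30), PMAIP1 (0.30), BMF (0.21), BCL2L11 (0.17), BCL2L1 (-0.16), BID (-0.19) and BAK1 (-0.29). The DAC effect on BMF and the NTX-301 effect on BAK1 were called in both lines with opposite signs. The MOLM-13 call of BAK1 was lost under quantile normalization. Line and stated concentration cannot be told apart. Groups of 3 are too small for a check of single outlying samples.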

How the results depend on the processing

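Over all genes, 7.42% to 45.1% were called in the 8 comparisons. Of 80 results on members (10 genes, 8 comparisons), 46 were called, 33 of these kept their call and direction under every alternative, and 13 lost the call in at least 1. Of the 34 not called, 12 were called in at least 1 alternative, among them BAD and BCL2 in HL-60, BAD, PMAIP1, MCL1 and BCL2L11 in MOLM-13 and BID between the drugs in both lines. The count of members called for NTX-301 in MOLM-13 was 7 and fell to 4 under quantile normalization, where BCL2 turned to 0.019 and MCL1 to 0.045. Leaving out 1 sample gave 3 to 5 members for DAC in HL-60 (3 without DMSO replicate 3 or DAC replicate 1 or 2), 7 to 8 for NTX-301 and 6 to 7 for NTX-301 against DAC there. It gave 5 to 6, 4 to 7 (4 without DMSO replicate 2) and 1 to 4 in MOLM-13, and 5 to 6 (DAC) and 6 to 7 (NTX-301) between lines. 

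Deviations of samples with the same replicate number were weakly correlated (-0.057 to 0.12 for HL-60, -0.16 to 0.11 for MOLM-13). With 3 samples per group and differently numbered samples not compared, this cannot decide whether the numbers pair the samples. The labels do not say. With a replicate block the members called were 4 (DAC), 8 (NTX-301) and 6 (NTX-301 against DAC) for HL-60, 5, 8 and 2 for MOLM-13, and 5 (DAC) and 6 (NTX-301) between lines. All genes called between the drugs in MOLM-13 numbered 1297, against 817 with the replicate block, 767 without DAC replicate 1, 479 without NTX-301 replicate 2 and 462 without NTX-301 replicate 3.

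The signs that turned outside these were those of small values that were not called. Leaving out 1 sample gave -0.058 to 0.014 for BAK1 with DAC in HL-60, -0.038 to 0.027 for BCL2 with NTX-301 there (0.028 under quantile normalization), and in MOLM-13 -0.023 to 0.043 for MCL1 with DAC (-0.031 when centred), -0.040 to 0.028 for BAD with DAC and -0.022 to 0.0021 for BAK1 between the drugs (0.0036 under quantile normalization). Between lines it gave -0.032 to 0.049 for BCL2L1 with DAC (-0.0009 when centred, -0.014 under quantile normalization) and -0.071 to 0.030 for BAD with NTX-301. Why these values moved was not tested. Centring moved the balance over all genes, to 2310 higher and 5400 lower for NTX-301 and 1818 and 4860 for NTX-301 against DAC (HL-60), and to 1960 and 5731 for DAC and 2735 and 5760 for NTX-301 in MOLM-13, from 3115 and 3265, 2622 and 2563, 2689 and 3705, and 3543 and 4337. Precision rests on 3 samples per group, since the depth is unknown.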
